A study of Mus musculus with 2 samples.

Results

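Open chromatin just upstream of genes was examined in mouse ileal enteroids with and without Taf4, which is part of TFIID, the complex that binds core promoters. The regions described are broad ATAC-seq peaks whose midpoint lay outside every annotated gene and 1 to 10 kb upstream of the nearest protein-coding start site, with the strand of the gene taken into account. By this rule 4772 of 90445 peaks (5.28%) in control enteroids and 4110 of 71282 peaks (5.77%) in Taf4-inactivated enteroids were upstream peaks. The control library came from Taf4 lox/lox enteroids (labelled WT) and the Taf4-inactivated library from Taf4 lox/lox::VilCreER T2 enteroids (labelled KO), in which the villin promoter drives a tamoxifen-inducible Cre in intestinal epithelium. Both cultures were grown from ileal crypts of 4-month-old C57Bl6/129sv mice, both carried the floxed Taf4 allele and both received 1 µM 4-hydroxytamoxifen for 3 days, and 20000 cells entered each assay. There was 1 library per genotype, so no difference between genotypes has a replicate check and no test between them was made. Shares are given with exact (Clopper-Pearson) 95% intervals, which cover counting error only, and width and fold depend on the peak caller and on sequencing depth.

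Sequence within 10 kb upstream of a start site holds proximal regulatory elements, where sequence-specific transcription factors bind and contact the promoter-bound machinery that contains TFIID. ATAC-seq finds such elements because the Tn5 transposase inserts adapters where nucleosomes are absent. In the small intestine the AP-1, HNF4, GATA and CDX factors are known to bind elements of this kind, HNF4 and GATA factors at many genes of absorptive enterocytes, and CTCF binds insulators.

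Of the marker genes listed for the cell types, 9 of 10 epithelial markers had a promoter peak in the control list and 10 of 10 in the Taf4-inactivated list. Krt20, a keratin of mature enterocytes, was the one without a control promoter peak. Of 20 stromal, endothelial, immune and neural markers, 11 had a promoter peak in control and 8 in Taf4-inactivated enteroids, while the defining markers Ptprc, Cd3e and Cd4 had none in either list. Over all 22372 coding genes counted, 15038 had a promoter peak in the control list and 14402 in the other. The share of DNA from such cells was not tested. A background read level was solved from fold and -log10 p of the narrowest 10% of peaks. Its 5th percentile was 12.1 reads in control and 7.35 reads in Taf4-inactivated enteroids, a ratio of 1.65. Total reads per library were not used here, and this level stands in for depth.

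Sequences of 7 upstream peaks are shown as examples of peaks named below, and none of them holds a CTCF match. The shares of recognition sequences given below rest on all upstream peaks. Each is the 300 bases about the peak midpoint on the plus strand of mm9, and capitals mark matches, on either strand, to 1 of 5 recognition sequences. The AP-1 sequence was TGANTCA, where N is any base, which also fits some sites of related leucine zipper factors. For HNF4 the search used the letters CAAAGTCCA, a form of its best known site. GATA factors were searched as AGATAA. For CDX factors CNATAAA was used, and for CTCF the core of its motif. The first 2 peaks were present in both lists. They are the peak whose lower percentile of fold over both lists was the highest, 9900 bp upstream of Fam184b at chr5:46040491-46040790, and a peak 1707 bp upstream of Tff3, the goblet cell trefoil factor, at chr17:31268149-31268448. The next 3 were found in Taf4-inactivated enteroids without a control partner. They lie 6566 bp upstream of Nfat5, the osmotic stress factor, at chr8:109810655-109810954, 1466 bp upstream of Cyp3a11, a cytochrome P450 of drug metabolism, at chr5:146692857-146693156, and 1411 bp upstream of Apoa1, the main apolipoprotein of HDL, at chr9:46035103-46035402. The last 2 were found only in control enteroids, 5487 bp upstream of Itln1, a goblet and Paneth cell lectin, at chr1:173470763-173471062, and 8175 bp upstream of Plcxd1 at chr5:110520664-110520963.
Fam184b: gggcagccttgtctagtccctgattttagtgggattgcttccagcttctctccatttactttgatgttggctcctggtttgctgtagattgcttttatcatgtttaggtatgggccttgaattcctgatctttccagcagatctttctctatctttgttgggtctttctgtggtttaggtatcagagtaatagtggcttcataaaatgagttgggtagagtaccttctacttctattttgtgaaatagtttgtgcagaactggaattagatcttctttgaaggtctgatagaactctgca
Tff3: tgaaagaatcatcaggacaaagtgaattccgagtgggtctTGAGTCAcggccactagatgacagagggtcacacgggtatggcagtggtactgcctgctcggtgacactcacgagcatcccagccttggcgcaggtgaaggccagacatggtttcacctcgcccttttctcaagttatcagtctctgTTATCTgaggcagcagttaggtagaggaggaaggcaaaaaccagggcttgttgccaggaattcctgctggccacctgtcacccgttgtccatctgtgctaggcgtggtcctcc
Nfat5: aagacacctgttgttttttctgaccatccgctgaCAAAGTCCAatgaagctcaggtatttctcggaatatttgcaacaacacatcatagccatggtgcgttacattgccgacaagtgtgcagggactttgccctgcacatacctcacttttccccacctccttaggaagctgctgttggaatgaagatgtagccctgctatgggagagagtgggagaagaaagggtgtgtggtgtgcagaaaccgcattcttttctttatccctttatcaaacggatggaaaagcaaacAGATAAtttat
Cyp3a11: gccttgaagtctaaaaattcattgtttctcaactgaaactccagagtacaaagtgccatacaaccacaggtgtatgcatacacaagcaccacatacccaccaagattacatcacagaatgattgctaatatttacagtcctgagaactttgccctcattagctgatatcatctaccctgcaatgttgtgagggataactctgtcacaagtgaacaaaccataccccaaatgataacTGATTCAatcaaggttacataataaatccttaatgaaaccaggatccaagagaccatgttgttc
Apoa1: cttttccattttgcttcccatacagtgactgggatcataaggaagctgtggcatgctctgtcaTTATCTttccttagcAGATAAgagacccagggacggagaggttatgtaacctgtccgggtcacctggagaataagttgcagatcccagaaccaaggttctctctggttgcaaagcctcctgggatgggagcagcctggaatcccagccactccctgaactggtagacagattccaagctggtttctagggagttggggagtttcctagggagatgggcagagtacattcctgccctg
Itln1: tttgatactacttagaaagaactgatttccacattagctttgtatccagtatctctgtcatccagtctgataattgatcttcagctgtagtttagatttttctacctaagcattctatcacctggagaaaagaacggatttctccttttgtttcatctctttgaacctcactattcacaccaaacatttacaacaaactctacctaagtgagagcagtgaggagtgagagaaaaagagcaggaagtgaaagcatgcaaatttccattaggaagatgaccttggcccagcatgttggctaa
Plcxd1: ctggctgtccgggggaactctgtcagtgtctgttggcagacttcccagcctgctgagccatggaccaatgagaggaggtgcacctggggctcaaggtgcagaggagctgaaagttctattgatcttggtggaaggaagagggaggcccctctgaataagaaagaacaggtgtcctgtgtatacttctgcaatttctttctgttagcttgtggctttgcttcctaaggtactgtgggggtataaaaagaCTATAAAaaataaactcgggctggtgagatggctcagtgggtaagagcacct
The Tff3 window holds an AP-1 match at bases 41 to 47 and a GATA match at bases 188 to 193. The Nfat5 window holds an HNF4 match at bases 35 to 43 and a GATA match at bases 290 to 295, and the Apoa1 window holds a GATA match at bases 64 to 69 and another at bases 79 to 84. The Fam184b and Itln1 windows hold no match to any of the searched sequences.

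Upstream peaks were slightly denser than distal intergenic peaks in both genotypes. The territory that meets the rule covers 121.6 Mb, and it held 39.3 peaks per Mb in control and 33.8 peaks per Mb in Taf4-inactivated enteroids. Intergenic sequence 10 to 100 kb from a coding start site held 36.1 and 28.2 peaks per Mb, and intergenic sequence 1 to 10 kb past a coding 3' end held 44.8 and 36.0 peaks per Mb. The last 2 classes share 3252 control and 2632 Taf4-inactivated peaks. The control excess of 662 upstream peaks cannot be told apart from the higher background level of that library. Among peaks whose -log10 q reached 5 the order turned, with 349 control peaks (7.31% of the upstream peaks) and 1092 Taf4-inactivated peaks (26.6%).

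Control upstream peaks lacked an overlapping peak in the other list about as often as all control peaks did. Taf4-inactivated upstream peaks lacked such a peak more often than all peaks of their list. An overlapping peak of the other list was present for 2262 control upstream peaks, or 47.4% (46.0 to 48.8), and for 2277 Taf4-inactivated upstream peaks, or 55.4% (53.9 to 56.9). The other 2510 control peaks and 1833 Taf4-inactivated peaks had no partner, which is 52.6% and 44.6%, beside 52.7% of all control peaks and 39.8% of all Taf4-inactivated peaks. Promoter peaks, with a midpoint under 1 kb from a start site, were shared for 87.7% (87.2 to 88.2) in control and 92.8% (92.4 to 93.2) in Taf4-inactivated enteroids. Peaks past a coding 3' end were shared for 44.7% and 56.2%, and distal intergenic peaks for 42.3% and 54.4%. Control upstream peaks were thus shared more often than distal ones by an interval that does not overlap (41.7 to 43.0), whereas the Taf4-inactivated intervals (53.6 to 55.2 for distal peaks) overlapped. At stricter thresholds the genotype order reversed, and of the upstream peaks with -log10 q of at least 5, 96.6% in control and 78.1% in Taf4-inactivated enteroids overlapped any peak of the other list.

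**Figure D1:**
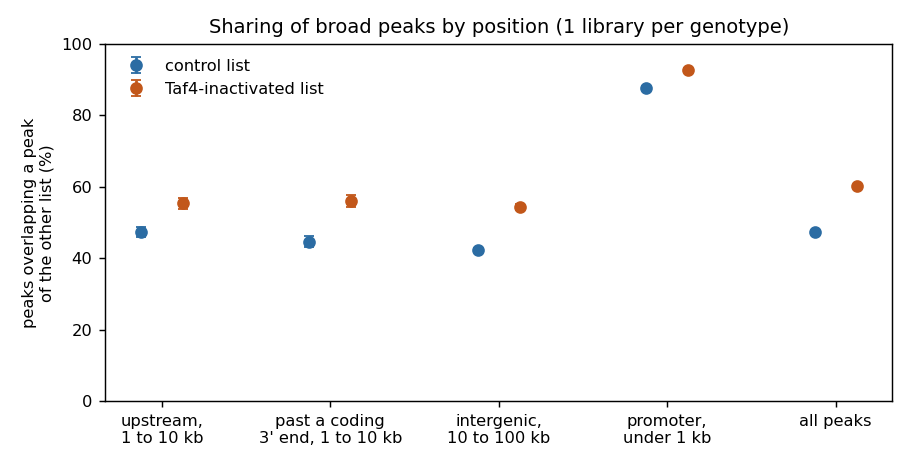
Percentage of broad peaks that overlap a peak of the other list by at least 1 bp (vertical axis), by position class (horizontal axis), for the control list (blue) and the Taf4-inactivated list (orange), with exact 95% intervals for counting error. Upstream peaks, at 47.4% and 55.4%, lie near the other intergenic classes and far below promoter peaks.

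Shared upstream peaks nearly always met another upstream peak, since the partner was itself an upstream peak for 2181 of 2262 control and 2193 of 2277 Taf4-inactivated peaks. It was a promoter peak for 34 and 42 of them. Sharing rose with strength: in the lowest 10% of the control list by fold, 37.9% of 483 upstream peaks were shared, and in the highest 10% it was 94.1% of 269. In the Taf4-inactivated list the same cuts gave 43.2% of 440 and 89.5% of 228. Among the strongest 10%, 16 of 269 control upstream peaks (5.95%, 3.44 to 9.48) lacked a partner, beside 2.38% of all control peaks of that strength. For Taf4-inactivated enteroids the count was 24 of 228 (10.5%, 6.86 to 15.3), beside 5.65% of all peaks of that strength. Most peaks of that strength were promoter peaks, 5639 of 9045 (control) and 4083 of 7129 (Taf4-inactivated), and 99.7% and 99.6% of these were shared. Distal intergenic peaks lay closer to upstream ones: 95.2% of 1151 (93.8 to 96.4) were shared in the control list. In the other list it was 88.8% of 1005 (86.6 to 90.6). Lacking a partner more often than all strong peaks was thus not particular to upstream peaks.

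Upstream peaks were narrower than promoter peaks, and their median width was lower in the Taf4-inactivated list. The median over all peaks was lower there too, at 530 bp against 584 bp in control, and the part of depth was not tested. The median was 522 bp (quartiles 308 and 850) for control peaks and 435 bp (quartiles 286 and 750) for Taf4-inactivated peaks, against 1009 and 948 bp for promoter peaks and 520 and 462 bp for distal intergenic peaks. Shared control peaks measured 636.5 bp and unpartnered ones 433.5 bp, and for the Taf4-inactivated list these medians were 559 and 325 bp. Over 2165 mutually best overlapping pairs the median widths were 639 bp for control and 558 bp for Taf4-inactivated peaks. The control peak was the wider one in 1146 pairs and the Taf4-inactivated peak in 1014, with a median ratio of Taf4-inactivated to control width of 0.966 (quartiles 0.624 and 1.34). Peaks of 2 kb or more were rare, with 90 control and 49 Taf4-inactivated ones, and 79 and 48 of them were shared.

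**Figure D2:**
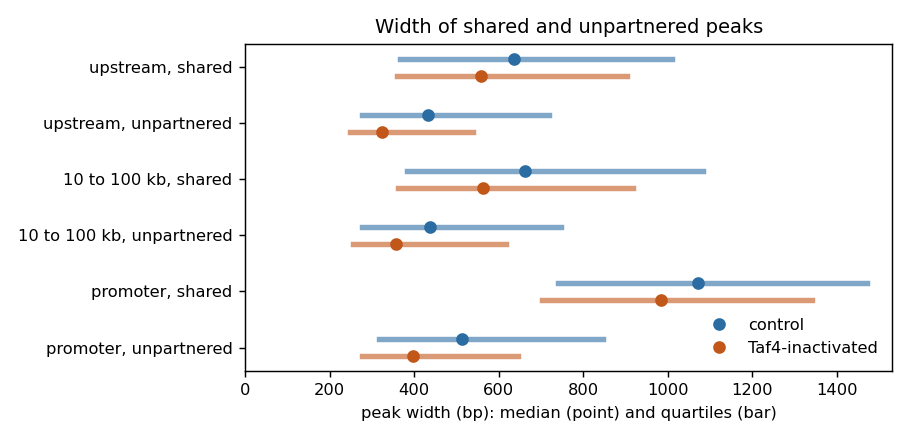
Median peak width in bp (points) with quartiles (bars) for shared and unpartnered peaks of 3 position classes, control in blue and Taf4-inactivated in orange. Unpartnered upstream peaks are the narrowest of the upstream sets, with medians of 433.5 bp (control) and 325 bp (Taf4-inactivated).

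The widest upstream peaks extended over the start site itself. The peak upstream of Bcl11b, a zinc finger factor of T cells and skin, was the widest of both lists, at 3882 bp (control) and 3762 bp (Taf4-inactivated). Next came Irf2bp2, a transcriptional co-repressor, with 3832 bp and Pnrc2, an mRNA decay factor, with 3573 bp in the control list, and the peak of Efna5, an ephrin ligand, measured 3326 bp in the Taf4-inactivated list. All of these named peaks were shared. Across the lists 126 control and 112 Taf4-inactivated upstream peaks reached within 1 kb of the start site, and 14 and 11 covered it.

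Sharing changed little with distance from the start site, whereas counts and width varied. Steps of 1 kb held 457 to 602 control and 391 to 527 Taf4-inactivated upstream peaks. Both maxima were at 5 to 6 kb and both minima at 3 to 4 kb. The territory within each step was not measured, so these counts are not densities. Sharing lay between 45.2% and 49.7% in control and between 52.4% and 57.7% in Taf4-inactivated enteroids, with overlapping intervals among the steps of each list. Median control width went from 455 bp at 2 to 3 kb to 573 bp at 8 to 9 kb, and median Taf4-inactivated width from 397.5 to 478.5 bp between the same steps.

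**Figure D3:**
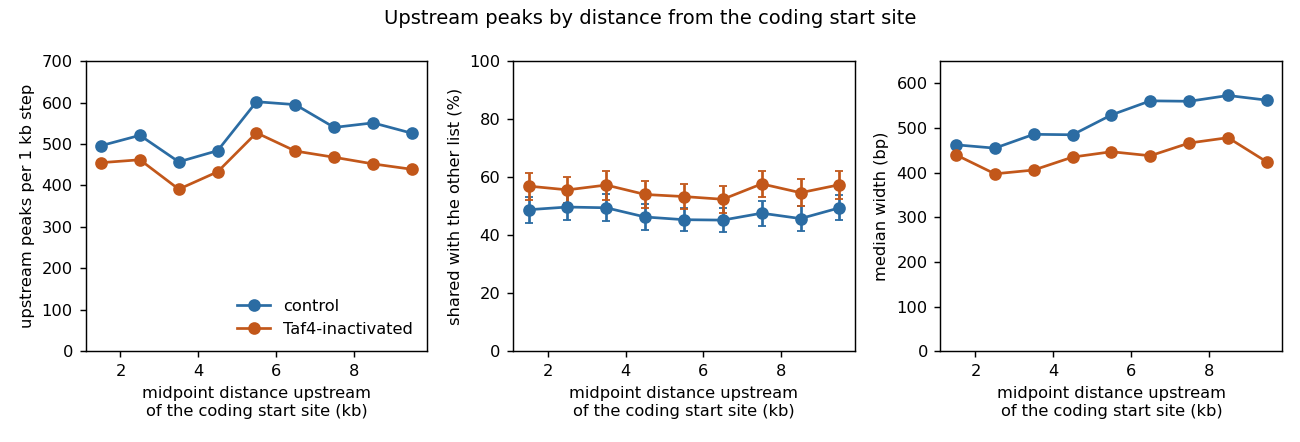
Number of upstream peaks (left), percentage shared with the other list with exact 95% intervals (centre) and median width in bp (right) in 1 kb steps of distance upstream of the coding start site, control in blue and Taf4-inactivated in orange. Sharing stays between 45.2% and 57.7% at all distances, while control width is larger at the far steps.

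Most upstream peaks had a promoter peak at the same start site, and most coding genes had a promoter peak at some start site. A further peak within 1 kb of the same start site was present in the same list for 68.5% (67.2 to 69.9) of control and 68.1% (66.6 to 69.5) of Taf4-inactivated upstream peaks. Counted by gene, with a peak at any of its coding start sites, a promoter peak was present for 15038 of all 22372 genes in the control list. It was present for 14402 in the Taf4-inactivated list. These counts use any start site and the shares above a single one, so they are not comparable. Seen from the genes, an upstream peak was found in control for 26.8% of 9963 genes with a promoter peak in both lists, 33.4% of 1576 genes with one in a single list and 15.4% of 5778 genes with one in neither. The Taf4-inactivated shares were 24.6%, 27.3% and 11.9%. Control upstream peaks were shared for 49.1% (47.4 to 50.8) beside a promoter peak and for 43.7% (41.2 to 46.3) without one. In Taf4-inactivated enteroids the intervals overlapped, 54.7% (52.9 to 56.6) and 56.8% (54.1 to 59.5).

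The paired peaks were also compared by their place in the order of each list. Fold enrichment is relative to the background of its own library, so the percentile of fold within each list was used. The lists differ in length and background level and rest on 1 library each, so a difference in percentile is not a measured change of the element. The percentiles of the 2165 pairs were related (Spearman's rho 0.602 across pairs, against 0.726 across all 42491 pairs, with peaks not independent), and the median difference, Taf4-inactivated minus control, was -1.46 points (quartiles -16.8 and 13.3). For 67 upstream pairs the Taf4-inactivated percentile exceeded the control one by 50 points or more, beside 2.22% of all pairs, and for 87 the control percentile exceeded the other by as much, beside 3.2% of all pairs. The peak upstream of Itpripl2 had fold 1.87 (percentile 17.3) in control and 3.99 (93.5) in the other list, that of Tex19.1, a germ cell gene, 1.87 (17.4) and 3.72 (90.5), and that of Sh2d6 1.80 (7.98) and 3.13 (79.8). In the other direction the peak upstream of Smc5, a subunit of the SMC5/6 DNA repair complex, had fold 2.34 (percentile 82.4) in control and 1.98 (3.14) in the other list. The peak of Aldh8a1, an aldehyde dehydrogenase, whose central 31 bases in control occur 2 times in the genome, had 2.51 (88.5) and 2.15 (16), and that of Nod1, the receptor for bacterial peptidoglycan, 2.59 (90.3) and 2.17 (19.3). These 6 pairs were named for their difference and each rests on 1 peak per library.

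Shared pairs were also ordered by the lower of their 2 percentiles of fold, and the first 5 are given. They are not the 5 peaks of highest fold in either list, since the highest fold of a Taf4-inactivated upstream peak was 6.40. The Fam184b peak had fold 4.43 in control and 5.80 in Taf4-inactivated enteroids, above the 99th percentile of either list. Gm9034 had folds of 4.95 and 5.63, Zfp869, a zinc finger gene, 3.96 and 5.42, Gm11143 3.89 and 5.38, and Gm5292 3.62 and 6.07. The midpoint of the Gm11143 peak in the Taf4-inactivated list lies in sequence whose central 31 bases occur 19490 times in the genome, whereas those at the control midpoint occur once. Such repeated midpoints were found in 264 of 4772 control upstream peaks (5.53%, 4.90 to 6.22) and 163 of 4110 Taf4-inactivated upstream peaks (3.97%, 3.39 to 4.61), beside 4.20% and 3.67% of all peaks. Their part in the results was not tested. The count covers only those 31 bases, so repeated sequence in the rest of a peak, the Fam184b peak included, was not looked for.

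The strongest unpartnered upstream peak of the control list was that of Plcxd1, a phospholipase-like gene, with fold 3.54 and a width of 326 bp. A further peak 5381 bp upstream of the same gene was shared, with fold 3.44 in control and 4.54 in Taf4-inactivated enteroids. Gm17680 followed with fold 3.24, Zfp709 with 2.90, Bmp6, a bone morphogenetic protein, with 2.71 and Fitm2, a lipid droplet protein, with 2.69. The central 31 bases occur 5 times in the genome for Gm17680 and 75 times for Bmp6, and once for the other 3 peaks. In Taf4-inactivated enteroids the strongest unpartnered peaks were those of Ccdc73 (fold 4.67), Ctf2 (4.50), Nfat5 (4.44), Slc25a24, a mitochondrial carrier (4.31), and Gm5884 (4.21), and all 5 had unique central bases. The promoters of Bmp6, Fitm2, Nfat5 and Slc25a24 had a peak in both lists.

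Joined over both lists, the upstream peaks formed 6683 regions. Of these, 2340 (35.0%) held peaks of both lists, 2510 (37.6%) a control peak only and 1833 (27.4%) a Taf4-inactivated peak only. They belonged to 5280 of the 17317 coding genes with such territory, 30.5%. There were 4053 genes with 1 region, 1057 with 2, 164 with 3 and 6 with 4, the maximum. Among the 1227 genes with several regions, 884 mixed kinds, 134 had only regions of both lists, 136 only control regions and 73 only Taf4-inactivated regions.

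The 6 genes with 4 regions differed in how far the lists shared them. All 4 regions of Gm10384 held peaks of both lists, at about 2, 3.5, 5 and 9 kb. Gpam, the acyltransferase that starts triglyceride synthesis, had 2 shared regions, 1 of control and 1 of Taf4-inactivated enteroids, and Plg, plasminogen, had 1 shared, 1 control and 2 Taf4-inactivated regions. Zfp647 had 1 shared, 2 control and 1 Taf4-inactivated region. Slc11a2, the ferrous iron transporter of the enterocyte brush border, and Acp5, an acid phosphatase, had no shared region, with 2 control and 2 Taf4-inactivated regions each. Next in order were 2900026A02Rik, 6330545A04Rik, BC057022, Gcnt3, a mucin-type glycosyltransferase, and Akna, each with 3 regions of both lists. The central 31 bases of a control peak occur 1066995 times in the genome for Gcnt3 and 13 times for 6330545A04Rik. Hes1, the Notch effector that restrains secretory fate, had 2 regions of both lists and 1 of control. The nearer shared Hes1 peak was 2217 bp wide in control and reached the start site.

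**Figure D4:**
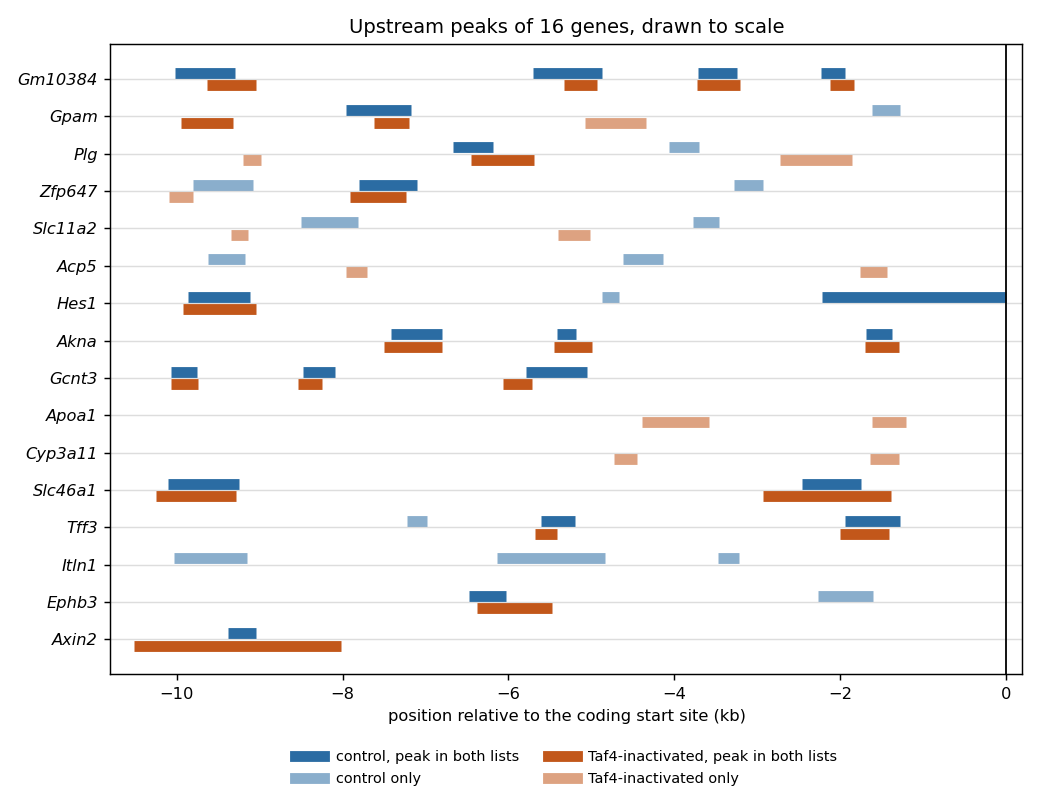
Upstream peaks of 16 named genes, drawn to scale by distance from the coding start site in kb (horizontal axis), control peaks in blue above and Taf4-inactivated peaks in orange below; pale bars belong to regions of a single list. A dark bar without a neighbour overlaps a peak of the other list that lies outside the 1 to 10 kb rule, as for Hes1 near the start site, and Apoa1, Cyp3a11 and Itln1 show regions of a single list.

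At least 3 regions, all of control, were found for 11 genes. These were Itln1, Gm13247, E030010N08Rik, Krt5, a basal keratin, Akap14, Nmur1, the neuromedin U receptor, Timp2, a metalloproteinase inhibitor, AY702103, Cdh26, 2900092C05Rik and Golph3, a Golgi protein. At least 3 regions, all of Taf4-inactivated enteroids, were found for 6 genes, Spink2, Crygb, Ifrd1, Il28ra, the interferon lambda receptor, Pcp4l1 and Tnfaip8l1. The Itln1 peaks had folds of 1.98, 2.43 and 1.98 at 3343, 5487 and 9594 bp, and the central 31 bases of the farthest occur 9 times in the genome. In this set the central bases of a control peak occur 490 times for Cdh26, and those of 2 peaks of Gm13247 occur 12 and 2 times. A Taf4-inactivated peak has 389 copies for Ifrd1, 30 for Spink2 and 8 for Pcp4l1. The Tnfaip8l1 peaks had folds of 1.89, 2.78 and 2.95 at 2477, 7057 and 8600 bp.

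Genes of absorptive enterocytes carried upstream regions at 13 of 25 genes with such territory, beside 30.5% of all coding genes. Of their 18 regions, 9 held peaks of both lists, 2 were control regions and 7 Taf4-inactivated regions, beside 37.6% and 27.4% over all genes. Apoa1 had 2 Taf4-inactivated regions, with fold 3.19 at 1411 bp and 2.30 at 3983 bp, and its neighbour Apoa4, another apolipoprotein, had 1 with fold 2.21 at 1731 bp. Cyp3a11 had 2 as well, with fold 3.66 at 1466 bp and 2.85 at 4589 bp. Sis, the sucrase-isomaltase gene, had 1. The 2 control regions belonged to Alpi, the intestinal alkaline phosphatase, and Slc7a9, an amino acid transporter. Slc46a1, the folate transporter, had 2 regions of both lists, the nearer with fold 1.74 in control and 2.24 in Taf4-inactivated enteroids.

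Genes of the secretory lineages had 20 regions at 13 of 29 genes, 9 of both lists, 9 of control and 2 of Taf4-inactivated enteroids, beside 35.0%, 37.6% and 27.4% of the regions over all genes. Itln1 supplied 3 of the control regions. Tff3 had 2 shared regions and a control region, Spink4, a goblet cell protease inhibitor, and Sst, somatostatin, had 1 shared and 1 control region each, and Lyz2, a lysozyme, and Gip, the incretin hormone, had a control region. The 2 Taf4-inactivated regions belonged to Ang4, a Paneth cell ribonuclease, and Cck, cholecystokinin, which also had a control region. Lyz1, the Paneth cell lysozyme, Chga, Muc4, Gfi1b and Pou2f3, the tuft cell factor, each had 1 shared region. The same shares over all genes, and the 30.5% of coding genes with a region, are the background for each gene group that follows. The share of genes with a region was above 30.5% in every gene group, from 31.6% for intestinal transcription factors to 78.6% for AP-1 genes. It was 44.4% for the markers of other cell types, so a raised share was not particular to intestinal genes. The counts are small, several splits between the lists lie near that background, and no test between the gene groups was made.

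Crypt stem cell genes had 10 regions at 9 of 18 genes, 7 of both lists, 3 of control and 0 of Taf4-inactivated enteroids, beside the same 35.0%, 37.6% and 27.4%. The shared regions belonged to Ephb2 and Ephb3, receptors that place cells along the crypt, Axin2, a Wnt target, Lrig1, Prom1, Rgmb and Smoc2. The control regions belonged to Ephb3, Aqp4 and Znrf3, a ubiquitin ligase that removes Wnt receptors. The Axin2 element was 339 bp wide in the control list and 2495 bp wide in the other, at percentiles 82.1 and 73.1 of fold. Wnt and Notch genes had 16 regions at 12 of 23 genes, with 11 of both lists, 3 of control and 2 of Taf4-inactivated enteroids. They included shared regions at Ctnnb1, beta-catenin, Notch1, its ligands Dll1 and Dll4, Lrp5, Fzd5 and Fzd7, and a Taf4-inactivated region at Tcf7l2 beside a shared one.

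Regulatory genes were mixed. Of 19 intestinal transcription factor genes, 6 had a region, and those of Cdx1, Gata5, Hnf4g and Rxra were shared, that of Foxa1 was a control region and that of Gata6 a Taf4-inactivated region. The Hnf4g element ranked high in both lists, at percentiles 92.7 (control) and 95.1 (Taf4-inactivated). AP-1 genes had regions at 11 of 14 genes, 16 in all, with 4 of both lists, 8 of control and 4 of Taf4-inactivated enteroids. Fosb had 3, and its shared element stood at fold 2.29 in control and 4.24 in Taf4-inactivated enteroids, percentiles 79.5 and 95.6. Genes of the Polycomb complexes, which place repressive histone marks, had 14 regions at 13 of 26 genes, 6 of both lists, 4 of control and 4 of Taf4-inactivated enteroids, the last at Cbx2, Cbx6, Phc2 and Suz12. TFIID genes had 5 regions at 5 of 11 genes: Taf4a, the gene inactivated here, and Taf12 had a shared region, Taf3 and Taf5 a control region and Taf4b, the paralog of Taf4a, a Taf4-inactivated region. The Taf4a element lay 3347 bp upstream in control with fold 1.84 and 3370 bp upstream in Taf4-inactivated enteroids with fold 2.82.

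Cell cycle and p53 genes had 15 regions at 11 of 22 genes, 7 of both lists, 5 of control and 3 of Taf4-inactivated enteroids. Ccnd1, cyclin D1, had 2 shared regions, and Cdkn1a, the p21 inhibitor, had 1 shared and 1 control region. Mki67, the proliferation antigen Ki67, had a control region at 2541 bp and a Taf4-inactivated region at 7616 bp, whose central 31 bases occur 4 times in the genome. Epithelial markers had 10 regions at 6 of 10 genes, 4 of both lists, 1 of control and 5 of Taf4-inactivated enteroids, the last at Cdh1, Cldn3, Cldn7, Krt19 and Krt20. The Epcam element was among the highest ranked, at percentiles 98.9 (control) and 96.1 (Taf4-inactivated). Markers of other cell types had 12 regions at 8 of 18 genes, 4 of both lists, 7 of control and 1 of Taf4-inactivated enteroids, including 2 control regions at Cdh5, the endothelial cadherin, and 1 each at Cd3e and Csf1r.

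Recognition sequences were rarer in unpartnered control upstream peaks than in the other 3 sets. An AP-1 match stood within the central 300 bp of 14.2% (12.8 to 15.7) of shared control peaks and 9.32% (8.21 to 10.5) of unpartnered control peaks, and of 15.1% (13.7 to 16.6) and 15.6% (14.0 to 17.3) of the Taf4-inactivated peaks. The same letters in reversed order were found in 7.29%, 7.37%, 7.69% and 8.89%, and AP-1 matches in windows beside the peaks in 8.05% to 8.67%. HNF4 matches were found in 1.64% (1.15 to 2.25) of shared and 0.558% (0.305 to 0.934) of unpartnered control peaks, and in 1.93% (1.41 to 2.59) and 2.51% (1.84 to 3.33) of the Taf4-inactivated peaks. The reversed letters gave 0.309%, 0.677%, 0.264% and 0.327%. An HNF4 match was thus present in 14 of 2510 unpartnered control peaks and 46 of 1833 unpartnered Taf4-inactivated peaks. CTCF core matches were found in 2.34% and 0.757% of the control sets, in 3.47% and 4.04% of the Taf4-inactivated sets, and in 0.218% to 0.319% of windows beside the peaks.

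GATA matches were found in 13.7% (12.4 to 15.2) of shared and 9.56% (8.44 to 10.8) of unpartnered control peaks, and in 14.5% (13.1 to 16) and 17.9% (16.2 to 19.7) of the Taf4-inactivated peaks. The reversed letters gave 9.06%, 9.84%, 9.13% and 9.66%, but windows beside the peaks, which have a lower GC content, held GATA matches in 14.1% to 15.7%. Median GC content was 52.3% and 52.0% in shared and unpartnered control windows, 52.3% and 49.3% in the Taf4-inactivated windows, and 46.0% to 46.3% beside the peaks. CDX matches differed less, with 12% and 9.72% in the control sets and 11.6% and 14.0% in the Taf4-inactivated sets, where the reversed letters gave 9.90%, 8.96%, 9.88% and 10.6%. The lower shares of unpartnered control peaks were not limited to upstream sequence: distal unpartnered control peaks held AP-1 in 8.62% and HNF4 in 0.391%, and distal unpartnered Taf4-inactivated peaks in 14.9% and 1.87%. Shared promoter peaks held AP-1 in 3.89% and 4.19% and HNF4 in 0.30% and 0.415% of windows in the 2 lists. Unpartnered control peaks were also weaker, with a median -log10 q of 1.69 against 2.31 for unpartnered Taf4-inactivated peaks. Among peaks with -log10 q of at least 2 the HNF4 shares were 0.63% of 793 unpartnered control and 3.31% of 1086 unpartnered Taf4-inactivated peaks, and the AP-1 shares 10.8% and 19.4%. Shares also moved with strength within a list, since shared Taf4-inactivated peaks under that limit held AP-1 in 9.22% and HNF4 in 0.362% of 553, against 17% and 2.44% of 1724 above it. Shared control peaks under it held HNF4 in 1.80% of 776, against 1.55% of 1486. The part of depth and peak strength in these shares was not tested further.

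**Figure D5:**
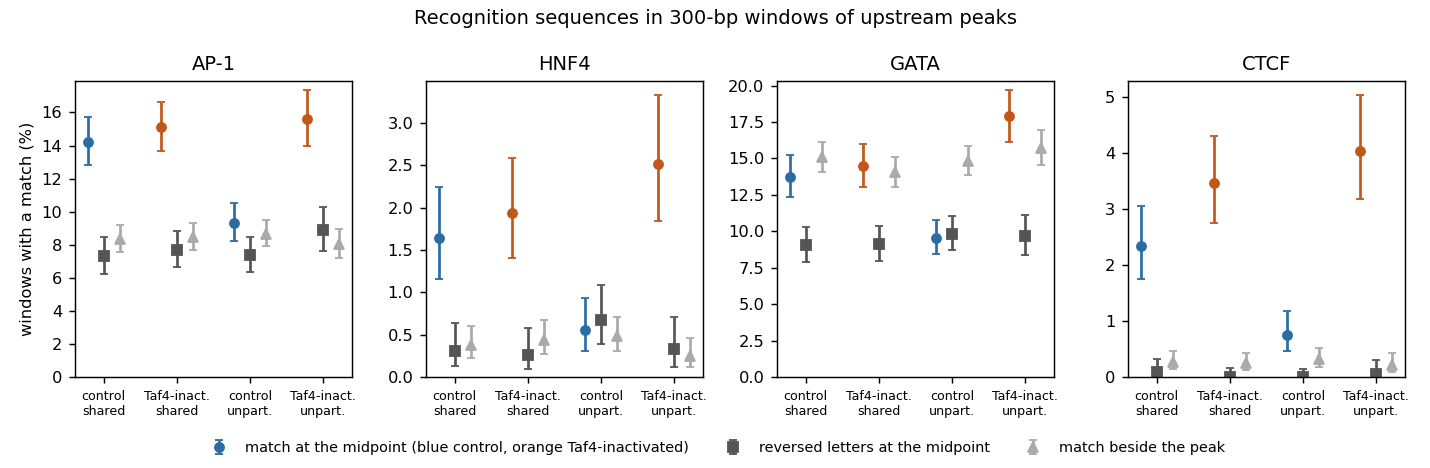
Percentage of 300-bp windows with at least 1 match (vertical axis) to the AP-1, HNF4, GATA and CTCF sequences in shared and unpartnered upstream peaks of each list, with exact 95% intervals; circles are matches at the midpoint, squares the reversed letters and triangles matches beside the peak. In unpartnered control peaks the AP-1 and HNF4 shares, 9.32% and 0.558%, lie at the level of windows beside the peaks.

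The unpartnered Taf4-inactivated peaks with an HNF4 match and the highest fold lay upstream of Nfat5 (fold 4.44), Ap1s1, a clathrin adaptor subunit (3.4), Rnpc3 (3.35), Cyb5b, a cytochrome b5 (3.33), and Tmprss2, a membrane serine protease (2.99), genes named after their values were seen. The Mki67 peak at 7616 bp held HNF4, GATA and CDX matches. Of the unpartnered control peaks with a match, those of Gm6843 (fold 2.47) and Gclc, the first enzyme of glutathione synthesis (2.38), were the strongest. Shared peaks with an HNF4 match included those of Pdgfa (fold 2.68 in control and 4.19 in Taf4-inactivated enteroids) and Tubg2 (2.64 and 3.55).

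By chromosome, sharing of control upstream peaks ran from 31.9% on X to 56.6% on 11. The X chromosome held 94 control and 56 Taf4-inactivated upstream peaks, of which 30 in each list were shared.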

How the data were processed

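ATAC-seq was done once for each of 2 genotypes. Per the labels and the study's methods, the authors aligned reads to mm9 with Bowtie 1.0.0, keeping reads with a single best place, and called broad peaks with MACS2 2.1.1. The deposited lists hold, for each peak, a score, a fold enrichment over background (a ratio), a -log10 p and a -log10 q. Read counts were not used here. Lists were read as deposited, and coordinates are printed counted from 1. Genes and 45974 coding transcript start sites came from GENCODE vM1 on the same build. A peak was shared when it overlapped a peak of the other list by at least 1 bp. Ranks are percentiles of fold within a list, and regions are overlapping upstream peaks of both lists joined. Territory is the intergenic sequence that meets the distance rule. Windows for recognition sequences were 300 bp about the midpoint, or 2000 bp beyond each edge, and the reversed-letter background and the limit to -log10 q of at least 2 for these windows were chosen after seeing the data. Depth was compared through the 5th percentile of the background levels that fit fold and -log10 p in the narrowest 10% of peaks. Named genes are the 12 with most regions, up to 4 for each of 11 gene lists, the 5 strongest unpartnered peaks of each list, 3 pairs for each direction of rank, genes with at least 3 regions of a single list and the 3 widest peaks of each list. Further list genes are named to account for a count, and some genes that the rule picks are not reported here. The members and lists were chosen with earlier results of these data known. The functions were tested on simulated data. Python 3.11.15, numpy 2.4.6, pandas 2.3.3, scipy 1.17.1 and matplotlib 3.10.9 were used.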

Additional observations from a re-analysis of the deposited data

How the results depend on the processing

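No paired analysis was possible because each genotype had 1 library. Of 106 alternative values, 52 were counted as the same as the reported value, 49 as moved and 5 as reversed. The first label does not mean a small change in every case. It also covers the fall of Taf4-inactivated upstream peaks from 4110 to 2810 at -log10 q of at least 2. The reversals came from q thresholds. Sharing, Taf4-inactivated minus control, was 8.0 points as reported, -10.3 at -log10 q of at least 2 in both lists (55.9% and 45.6%), -57.3 at 5 or more (84.0% and 26.6%) and -18.4 for peaks at 5 or more against all peaks (96.6% and 78.1%). The control excess of peaks became -531 at 2 or more (2279 control and 2810 Taf4-inactivated) and -743 at 5 or more (349 and 1092). A threshold on both lists also removes partners, and the cause of the turn was not tested. Median widths at 2 or more were 412 bp in Taf4-inactivated enteroids, and at 5 or more 682 and 495.5 bp, 186.5 bp apart.

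Overlap of 50% of both peaks gave sharing of 28.8% and 33.3% (4.53 points), with 40 and 50 pairs past 50 points, and a gap of up to 500 bp gave 49.3% and 57.7%. Peaks of 300 to 1000 bp gave 61.0% in Taf4-inactivated enteroids and a difference of 14.2 points. A limit of 5 kb left 1958 and 1742 peaks, 216 apart, with widths of 472 and 417 bp, 55 bp apart. Whole peaks within 1 to 10 kb had widths of 498 and 419 bp. Genes with 2 or more and 3 or more regions numbered 449 and 38 at -log10 q of at least 2, and 102 had 3 or more with regions joined within 1 kb. A peak over the start site itself was present for 56.1% and 57.3%. In 500-bp windows AP-1 was found in 20.9%, 14.7%, 21.2% and 22.7% and GATA in 20.7%, 15.8%, 22.3% and 26.4% of shared and unpartnered control and shared and unpartnered Taf4-inactivated peaks, and HNF4 in 2.59% of shared Taf4-inactivated peaks. At -log10 q of at least 2, AP-1 was found in 10.8% of unpartnered control, 17% of shared and 19.4% of unpartnered Taf4-inactivated peaks, and GATA in 16.4% and 21.3% of the last 2.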
